A study of Mus musculus with 90 samples.

Results

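The 10 apolipoprotein genes Apoa1, Apoa2, Apoa4, Apoa5, Apob, Apoc1, Apoc2, Apoc3, Apoe and Apom were followed through all liver RNA of a mouse study of night-restricted feeding (NRF), a schedule in which food is given only in the dark phase. They were chosen by name from 24312 gene symbols, and each was represented by the RefSeq transcript with the highest mean RPKM (reads per kilobase of transcript, scaled to the mapped reads of the library). All 10 passed the filter on low values in every experiment. RNA was measured in 54 livers of single mice in 16 groups and 5 experiments, each fitted on its own. The NRF experiment held male wild-type C57BL/6 mice (C57BL/6N in the study's methods) after 4 days of NRF, killed at ZT10 before the meal or at ZT14 with food given (ZT14-fed) or withheld (ZT14-unfed), with 2 mice per group (ZT, zeitgeber time, counts hours from lights on). The injected experiment held 5 groups of 4 wild-type mice at ZT14, namely unfed mice given vehicle and fed mice given vehicle, dexamethasone (dex, a synthetic glucocorticoid, 1 mg/kg), S961 (a peptide antagonist of the insulin receptor), or dex plus S961. The L-GRKO experiment compared 4 Nr3c1 fl/fl mice given AAV-CRE, which deletes the glucocorticoid receptor (GR) from hepatocytes under the Tbg promoter, with 4 given AAV-GFP, all unfed at ZT14. The L-IRSdKO experiment compared 4 mice lacking Irs1 and Irs2 in hepatocytes through Alb-Cre with 4 floxed controls, all fed, all given dex and, by the methods, on a C57BL/6J background. The obesity experiment held lean mice and mice made obese by 10 weeks of high-fat diet, fed or unfed at ZT14 under NRF, with 3 mice per group.

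Apolipoproteins are the protein shell of lipoproteins, the particles that carry triglyceride and cholesterol in plasma, and the liver secretes most of them. Apob is the structural protein of very-low-density lipoprotein (VLDL), Apoa1 and Apoa2 are the main proteins of high-density lipoprotein (HDL), and Apom carries sphingosine-1-phosphate on HDL. Apoc2 activates lipoprotein lipase, Apoc3 and Apoc1 restrain the clearance of triglyceride-rich particles, Apoa5 promotes it, and Apoe is the ligand by which the liver takes up remnants. Apoa4 is made by gut and liver and responds to lipid flux and fasting.

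In the mouse genome 7 of the 10 genes lie in a pair of clusters. In mm9, with gene models from GENCODE, Apoa1 (chr9:46036663-46038549, plus strand), Apoc3 (chr9:46041016-46043719, minus), Apoa4 (chr9:46048779-46051542, plus) and Apoa5 (chr9:46076716-46080002, plus) span 43.3 kb of chromosome 9. Apoc2 (chr7:20256928-20266772), Apoc1 (chr7:20274833-20278007) and Apoe (chr7:20281458-20284515) span 27.6 kb of chromosome 7, all on the minus strand. Apoa2 (chr1:173155185-173156510, plus), Apob (chr12:7984454-8023641, plus) and Apom (chr17:35265942-35268995, minus) stand alone. The Apoc2 locus overlaps Apoc4 and a readthrough transcript, and Apoa4 overlaps an antisense gene, so their values may include reads of the neighbour.

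Apoa5, the member that passed the test in a pair of comparisons, and Apoa2 were the members with a GR peak and a FOXO1 peak (FOXO1 is the forkhead factor that insulin signalling keeps out of the nucleus) centred just upstream of the start. Both kinds of peak were called in unfed livers at ZT14. The parts of the FOXO1 peaks upstream of the start are shown on the plus strand, chr9:46076535-46076714 for Apoa5 and chr1:173155023-173155184 for Apoa2, in mm9. Capitals mark the forkhead core GTAAACA, here in its reverse complement, which was found in Apoa2 and not in Apoa5.
Apoa5 FOXO1 peak: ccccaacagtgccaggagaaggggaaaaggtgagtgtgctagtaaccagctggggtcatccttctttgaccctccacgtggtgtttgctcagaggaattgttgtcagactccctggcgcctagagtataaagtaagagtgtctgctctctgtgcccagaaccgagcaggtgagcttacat
Apoa2 FOXO1 peak: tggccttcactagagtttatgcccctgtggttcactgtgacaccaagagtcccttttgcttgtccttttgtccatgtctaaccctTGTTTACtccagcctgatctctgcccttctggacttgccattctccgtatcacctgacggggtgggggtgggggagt

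The depth implied by the steps between low RPKM values ran from 26100000 to 38300000 reads per library in the NRF experiment, 6430000 to 13500000 in the injected, 15200000 to 27400000 in the L-GRKO, 3620000 to 4450000 in the L-IRSdKO, and 16900000 to 62100000 in the obesity experiment. The study's sequencing summary lists more reads than this for every L-IRSdKO library, and the reason was not tested. The fewest reads behind a member value were then about 319 (Apoc2, L-IRSdKO), a counting error of 5.59% if the implied depth holds. In the L-IRSdKO libraries the range of values was flattened, with the highest RPKM of any gene between 674 and 914, against 18853 to 60597 elsewhere. Replicate 4 of every injected group, whose library numbers form a series of their own in the labels, stood apart in 4666 of 11251 genes (41.5%) and in 5 of the 10 members. The hepatocyte markers were present in every library (Alb at 649.8 RPKM or more), and of the 4 small intestine markers Vil1, Alpi and Sis stayed at or under 0.574 RPKM. The fourth, Fabp2, ran from 22.3 to 125 RPKM. In bulk liver, fewer cells of a type and less RNA per cell cannot be told apart.

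Levels per length differed between members far more than between conditions. Outside the L-IRSdKO experiment, Apoe and Apoa2 were the 2 most abundant members in each experiment. Apoe had medians of 6474 RPKM in the NRF, 5817 in the injected, 10102 in the L-GRKO and 11066 in the obesity experiment, and ranked between 2 and 4 among all genes. Apoa2 had medians of 6611, 6247, 7437 and 9736 RPKM in the same order. Apoa1 followed with medians of 2679, 4809, 4815 and 5633 RPKM, and Apoc1 with 2742, 2874, 3580.5 and 7032 RPKM. Apoe and Apoa2 overlapped in range in all of these experiments except L-GRKO, where the lowest Apoe library (9137 RPKM) lay just above the highest Apoa2 library (9074 RPKM).

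Apoc3 came next, with medians from 987 RPKM (NRF) to 2465 RPKM (obesity). Apob lay between 527 and 836 RPKM by median and Apoa5 between 319 and 623, and these neighbours overlapped in range in all experiments except NRF. Apom (163 to 214 RPKM by median), Apoc2 (114 to 241) and Apoa4 (34.8 to 135) were the least abundant, and Apoa4 had the lowest mean over the libraries of each experiment. It overlapped the next member in range in all but NRF, and in the fed S961 livers its mean (232 RPKM) was above those of Apoc2 (148) and Apom (145). Apoa4 also varied most within a group, with a median coefficient of variation of 29.5% over the groups of 3 or 4 livers and a highest of 78.9%. The NRF groups, with 2 livers each, were left out of this measure. Apoa2 varied least by the same measure, at 8.1%.

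**Figure D1:**
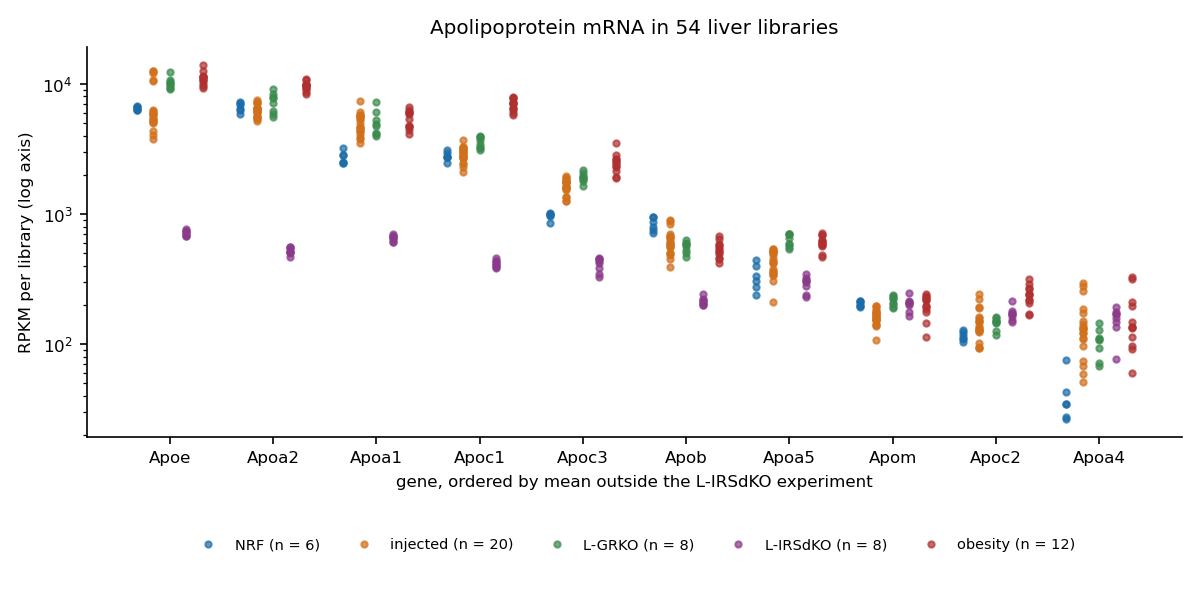
RPKM of the 10 apolipoproteins in each of 54 libraries (1 point each, log axis), coloured by experiment. The abundant members reach 3790 to 14026 RPKM for Apoe outside L-IRSdKO and only 672 to 764 RPKM in the L-IRSdKO libraries, while Apom and Apoc2 lie at like levels in both.

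The flattening in the L-IRSdKO libraries was largest for the abundant members. Apoe averaged 7427 RPKM in fed dex-treated wild-type mice and 717 RPKM in the floxed controls, which were also fed and given dex, a ratio of 10.4. The ratio was 10.8 for Apoa2, 8.68 for Apoa1, 7.39 for Apoc1, 3.39 for Apoc3 and 2.32 for Apob. It was 1.14 for Apoa5, 0.98 for Apom, 0.93 for Apoc2 and 0.641 for Apoa4. The median RPKM over all genes ran from 0.633 to 0.7395 in the floxed controls and from 0.222 to 0.267 in the fed dex-treated livers. RPKM is relative to the other genes of a library, so a ratio near 1 does not show a member to be free of the flattening. The 10 members together made up 1.15% to 1.33% of the summed RPKM in the L-IRSdKO libraries and 4.77% to 9.85% in the others. Levels and orders are therefore given within an experiment only, and differences in the L-IRSdKO comparison are on that flattened scale.

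Time without food was examined by ZT14-unfed against ZT10. None of the 10 members passed limma's test at an adjusted p (Benjamini-Hochberg over all genes) under 0.05, where 8.95% of 10907 genes did, and 3 members were under 0.05 before adjustment. Apoa5 was at 334 and 304 RPKM at ZT10 and at 397 and 446 RPKM at ZT14-unfed, a log2 difference of 0.40 ± 0.11 (SE, n = 2 per group, limma adjusted p = 0.06412). The groups did not overlap. Apoa4 was at 26.6 and 27.5 RPKM at ZT10 and at 34.7 and 75.7 RPKM at ZT14-unfed (0.91 ± 0.31, limma adjusted p = 0.1166), so 1 of the unfed livers held most of the difference. Without the other unfed liver, replicate 1, it was 1.47 (limma adjusted p = 0.001985), the lone library being assumed to vary like the others. Apoa1 was at 2509.7 and 2454 RPKM and then 2848 and 3189 RPKM (0.28 ± 0.10, limma adjusted p = 0.1401). In all, 7 members did not overlap between the groups, but with 2 mice per group neither did 56.2% of all genes. The members' median log2 difference was 0.0084 and that of all genes −0.0972. The endothelial marker Lyve1 (1.46) and the hepatocyte marker Hnf4a (0.56) were higher at ZT14-unfed, and their part was not tested.

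The meal was examined by ZT14-fed against ZT14-unfed. Of the 10 members 1, Apoa5, passed the test, where 6.77% of all genes did (1.9% lower), and 2 were under 0.05 before adjustment. Apoa5 was at 397 and 446 RPKM in the unfed livers and at 239 and 275 RPKM in the fed ones, and fell by 0.71 ± 0.11 on the log2 scale, to 0.610 of the unfed level (limma adjusted p = 0.01551). Both fed livers were also below both ZT10 livers, a contrast that was not fitted and for which no share of all genes was counted. The call was lost without either fed library or unfed replicate 2. Without fed replicate 1 the difference was −0.61 (limma adjusted p = 0.08435), without fed replicate 2 −0.81 (0.07929), and without unfed replicate 2 −0.63 (0.05798). The summed hepatocyte markers ran from 28957 to 31790.0 RPKM fed and 34295 to 35228 RPKM unfed, and the endothelial markers from 45.9 to 51.2 and 54.8 to 59.0 RPKM. None of these markers passed limma's test (2 under 0.05 before adjustment), and their part was not tested.

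Apob was at 796 and 756 RPKM unfed and 950.2 and 956 RPKM fed (0.30 ± 0.11, limma adjusted p = 0.132). Apoa4 was at 35.0 and 42.6 RPKM fed (−0.40 ± 0.31, limma adjusted p = 0.4429), between the unfed livers, and without unfed replicate 1 the difference was −0.96 (limma adjusted p = 0.01034). Apoe was close to level, at 6354 and 6717 RPKM unfed and 6337 and 6613 RPKM fed, with a 95% interval of the log2 difference from −0.21 to 0.18. Apom, Apoc1, Apoc2 and Apoc3 had differences between −0.08 and 0.07. In all, 4 members did not overlap between the groups (Apob and Apoc3 higher, Apoa2 and Apoa5 lower), against 59.7% of all genes, 45.6% higher and 14.1% lower. The members' median was −0.04 and that of all genes 0.12, a shift that median-ratio scaling removed (−0.005) while leaving Apoa5 at −0.86.

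In the vehicle-injected mice the same meal comparison had 4 livers a group. None of the members passed limma's test, where 3.13% of genes did, and 2 were under 0.05 before adjustment. None was free of overlap between the groups, as 13.5% of genes were. Apoa5 was at 519, 484, 523 and 511 RPKM in unfed livers and 375, 349.6, 534 and 361 RPKM in fed ones, a difference of −0.35 ± 0.14 (limma adjusted p = 0.1822). Fed replicate 3 stood above all the unfed values and the other fed livers stood below all of them. Apoa2 was at 7127, 7251, 7504 and 5919.5 RPKM unfed and 5539.6, 5221, 6437 and 5409 RPKM fed (−0.30 ± 0.10, limma adjusted p = 0.1206, and 0.04661 with a term for the library number series). Apoa4 differed by −0.63 ± 0.35 and Apob by 0.35 ± 0.19, with limma adjusted p of 0.3446 and 0.3215.

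In the same comparison 9 members had a lower mean log2 value in fed livers and 1, Apob, a higher one, and none of these passed the test. By median they differed by −0.26, against 0.10 for all genes. Of the 7 Kupffer cell markers 3 passed the test, all higher in fed livers, and their summed level ran from 79.0 to 115 RPKM there and from 55.4 to 68.6 RPKM in unfed livers. Their part in the members' differences was not tested.

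**Figure D2:**
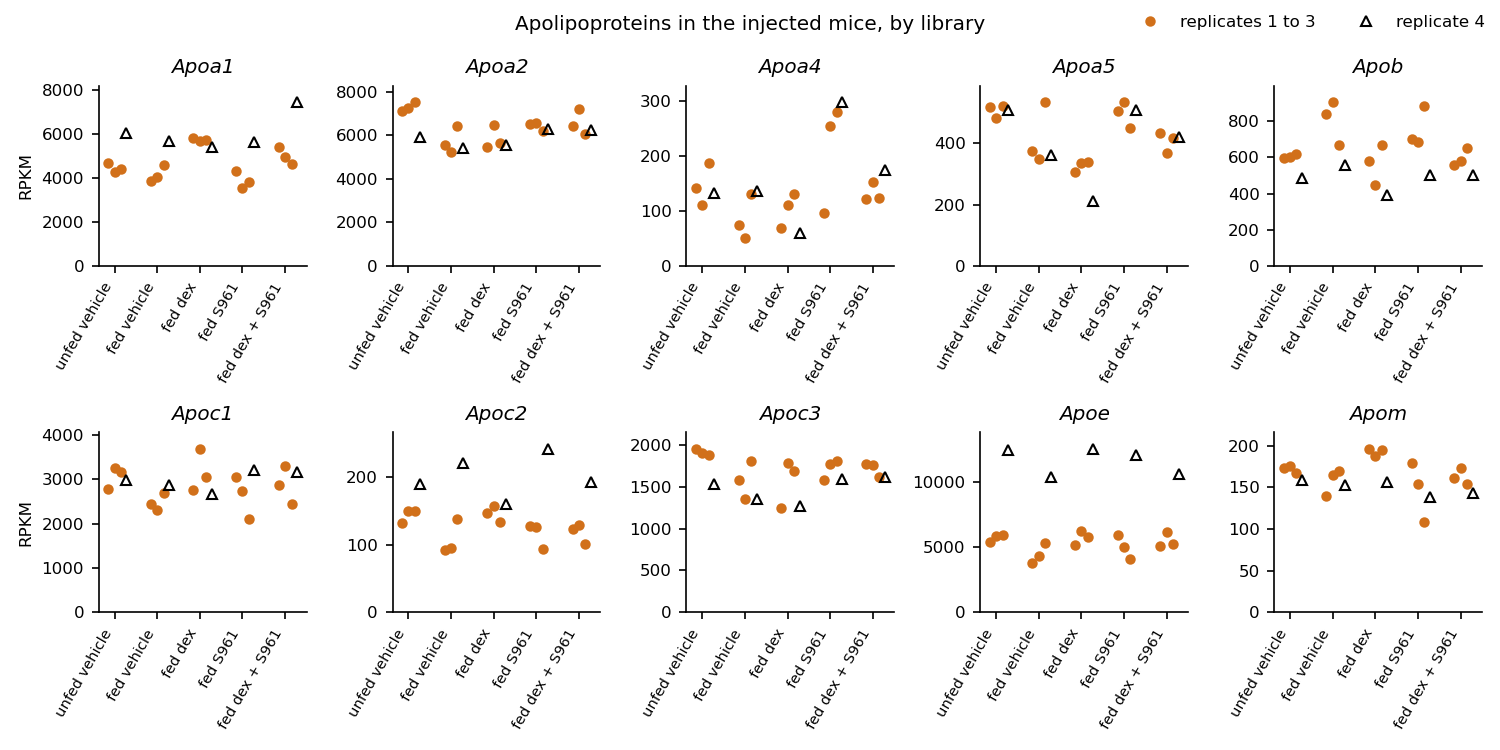
RPKM of each apolipoprotein in the 20 livers of the injected experiment, by group (filled points, replicates 1 to 3, open triangles, replicate 4, each panel with its own linear axis from 0). Apoe in replicate 4 lies between 10439 and 12570.4 RPKM in every group and between 3789.8 and 6241 RPKM in the other replicates.

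Replicate 4 set the spread of several members in this experiment. Apoe, in the 5 groups together, ran from 3789.8 to 6241 RPKM in replicates 1 to 3 and from 10439 to 12570.4 RPKM in replicate 4, a log2 difference of 1.15 ± 0.09 (limma adjusted p = 6.958e-08). Apoc2 was higher in replicate 4 by 0.67 and Apoa1 by 0.38, while Apob was at −0.43 and Apoc3 at −0.21, all with a limma adjusted p under 0.05. A difference of Apoe between treatments therefore had a standard error of 0.39, against 0.08 in the NRF experiment. What the library number series stands for is not given in the labels, and its part was measured only by the fits with a term for it and by the fits on replicates 1 to 3.

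GR activation during the meal was examined by fed dex against fed vehicle. None of the members passed limma's test, where 3.19% of genes did, and 2 were under 0.05 before adjustment. Apob was at 839, 904, 666 and 558 RPKM with vehicle and 578, 448, 668 and 394 RPKM with dex (−0.51 ± 0.19, limma adjusted p = 0.1396). Dex replicate 3 lay among the vehicle livers, and the limma adjusted p was 0.01483 with the series term, 0.01958 with a replicate block and 0.05003 on replicates 1 to 3 (−0.52). Apoa5 was at 306, 338, 339.6 and 212 RPKM with dex, all below the 4 vehicle livers, the 1 member free of overlap against 10.5% of genes (−0.44 ± 0.14, limma adjusted p = 0.09533). With the series term its adjusted p was 0.04306, and on replicates 1 to 3 the difference was −0.33 (limma adjusted p = 0.1458).

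Apoa1 ran the other way under dex. It was at 3834, 4056, 4583 and 5659 RPKM with vehicle and 5789, 5683, 5719.7 and 5380.2 RPKM with dex (0.33 ± 0.17, limma adjusted p = 0.3034). On replicates 1 to 3, a choice made after the replicate 4 values had been seen, it was 0.47 (limma adjusted p = 0.01273). Apom was at 140.0, 164, 169.8 and 153 RPKM with vehicle and 196, 187, 195 and 156 RPKM with dex (0.23 ± 0.12, limma adjusted p = 0.3457). Apoa2 and Apoc3, at 0.03 and −0.03, were close to level, with 95% intervals from −0.18 to 0.25 and from −0.30 to 0.24. The members' median difference was 0.13 and that of all genes −0.10. Neighbours in the chromosome 9 cluster thus had differences of 0.33 (Apoa1), −0.03 (Apoc3), −0.05 (Apoa4) and −0.44 (Apoa5), which were not tested against each other. Of the 7 Kupffer cell markers 1 and of the 5 endothelial markers 2 were lower with dex, and their part was not tested.

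Block of insulin signalling during the meal was examined by fed S961 against fed vehicle. None of the members passed limma's test or was free of overlap, where 1.9% and 6.49% of genes were, and 2 were under 0.05 before adjustment. Apoa4 was at 74.8, 51.0, 130.0 and 136 RPKM with vehicle and 96.9, 255, 281 and 298 RPKM with S961 (1.23 ± 0.35, 2.35-fold, limma adjusted p = 0.08431). In 3 of the 4 S961 livers it was higher than in any vehicle liver, and without S961 replicate 1 the difference was 1.61 (limma adjusted p = 0.00821). With a replicate block it passed as well (limma adjusted p = 0.03526). On replicates 1 to 3 it was 1.26 (limma adjusted p = 0.1251). Apoa5 was at 505, 534, 449.6 and 509 RPKM with S961 (0.32 ± 0.14, limma adjusted p = 0.3144). The fed vehicle livers ran from 349.6 to 534 RPKM and the unfed ones from 484 to 523 RPKM, and S961 was not fitted against the unfed livers. By median the members were at 0.13 and all genes at −0.08. Of the 7 Kupffer cell markers 3 were lower with S961 (summed level 52.5 to 77.1 RPKM), and their part was not tested.

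With dex plus S961 none of the members passed limma's test, where 10.6% of genes did, and 0 were under 0.05 before adjustment. None was free of overlap, as 17.1% of genes were. Apob was at 556, 577, 653 and 503 RPKM (−0.36 ± 0.19, limma adjusted p = 0.2428, and 0.0488 with the series term). Apoa4 was at 123, 152, 123 and 174 RPKM (0.64 ± 0.35, limma adjusted p = 0.2686). Apoa5 was at 433, 368, 418 and 419.5 RPKM, above each liver given dex alone (339.6 RPKM at most) and below each given S961 alone (449.6 RPKM at least). Dex plus S961 was not fitted against dex alone or S961 alone, and the share of all genes so placed was not counted. The difference of Apoa5 from vehicle was 0.04 ± 0.14. The interaction of dex with S961 was called for 0% of genes by limma, the members included (0 members under 0.05 before adjustment), with Apoa4 at −0.54 ± 0.50 and Apoa5 at 0.16 ± 0.20. These comparisons share the fed vehicle livers. Of the 7 Kupffer cell markers 4 were lower with dex plus S961, as was the stellate cell marker Rgs5 (−0.72), again with no test of their part.

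**Figure D3:**
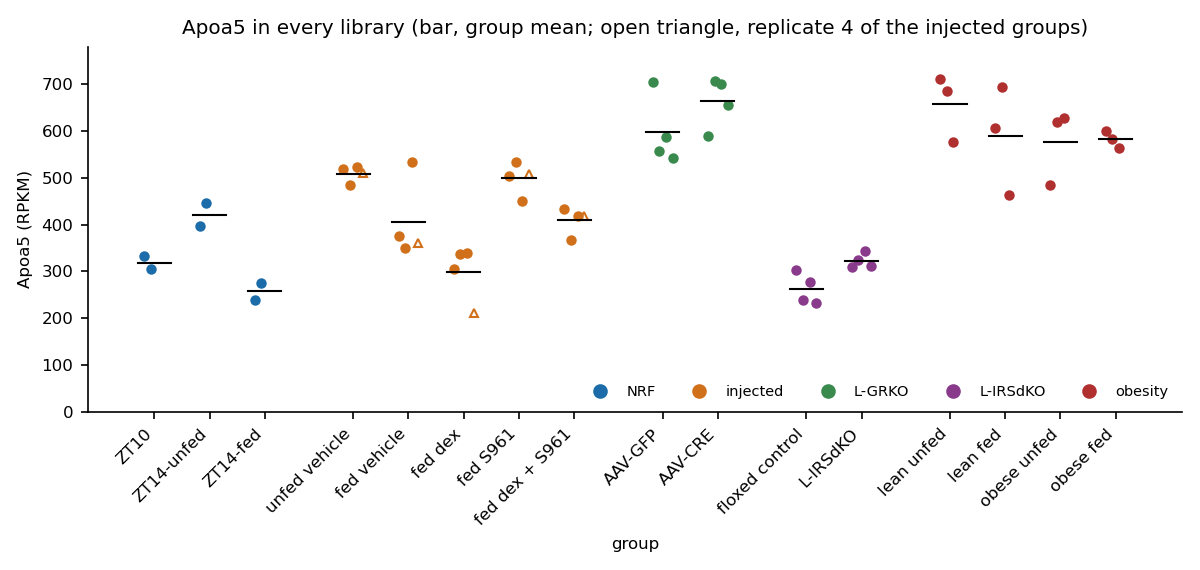
Apoa5 RPKM in each of the 54 libraries by group (points, bars for group means, open triangles for replicate 4 of the injected groups, linear axis from 0). Fed livers stand at 239 and 275 RPKM against 397 and 446 RPKM unfed in the NRF experiment, and the 4 L-IRSdKO livers at 309 to 344 RPKM against 232 to 303 RPKM in the floxed controls.

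Loss of GR was examined in unfed mice. Nr3c1 itself was at 12.8, 14.5, 13.2 and 16.2 RPKM with AAV-GFP and 3.93, 4.23, 4.14 and 5.35 RPKM with AAV-CRE (−1.58, limma adjusted p = 6.833e-05). None of the members passed limma's test, where 6.68% of genes did, and 3 were under 0.05 before adjustment. Apoa1 was at 4904, 5255, 7279.9 and 6112 RPKM with AAV-GFP and 4088, 3990.2, 4159 and 4727 RPKM with AAV-CRE (−0.46 ± 0.15, limma adjusted p = 0.09419), the 1 member free of overlap against 12.8% of genes. Apoa4 was at 147, 108, 128 and 111 RPKM and then 67.6, 110.0, 71.9 and 93.4 RPKM (−0.54 ± 0.16, limma adjusted p = 0.07199). Without AAV-CRE replicate 2, the one that overlapped, it was −0.67 (limma adjusted p = 0.03796), and it passed under both other scalings, median-ratio (0.04808) and quantile (0.03778).

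Apoa2 was at 5868, 6219, 7945 and 5591 RPKM with AAV-GFP and 7753, 8316, 9074 and 7121 RPKM with AAV-CRE (0.34 ± 0.15, limma adjusted p = 0.2274). The other members had differences between −0.12 and 0.20, among them Apoa5 (706, 557, 588 and 542 RPKM, then 589, 708, 702 and 657 RPKM, 0.15 ± 0.11) and Apom, with a 95% interval from −0.22 to 0.22. A median of 0.10 over the members stood beside 0.08 for all genes. All 3 erythroid markers were higher with AAV-CRE, at a summed level of 331 to 623 RPKM against 223 to 289 RPKM. Of the hepatocyte markers Cps1 was lower (−0.90), and of the stellate cell markers Lrat was higher (0.47). The part of these markers in the members' differences was not tested.

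Loss of IRS1 and IRS2, which carry the insulin signal from its receptor, was examined in fed mice given dex. Irs1 was at 2.21, 4.70, 4.73 and 4.50 RPKM in floxed controls and 0.149, 0.155, 0.321 and 0.17 RPKM in L-IRSdKO livers (−2.66, limma adjusted p = 0.0009162). Irs2 was at 0.614, 1.63, 5.61 and 0.929 RPKM and then 0.272, 1.00, 0.932 and 0.886 RPKM (−0.79, limma adjusted p = 0.3078), so the RNA did not show its loss by this test. Of the 10 members 1, Apoa5, passed limma's test, where 17.4% of genes did (9.06% higher), and 4 were under 0.05 before adjustment. Apoa5 was at 303, 238, 278 and 232 RPKM in controls and 309, 324, 344 and 313 RPKM in L-IRSdKO livers, and rose by 0.30 ± 0.09 on the log2 scale, 1.23-fold (limma adjusted p = 0.04845). The groups did not overlap, though the nearest values, 303 and 309 RPKM, were close.

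The Apoa5 call lay at the threshold. Without control replicates 2, 3 or 4 its limma adjusted p was 0.1155, 0.06587 and 0.1111, and without L-IRSdKO replicates 2, 3 or 4 it was 0.1135, 0.1229 and 0.09316, with differences from 0.24 to 0.33. It was also lost with median-ratio scaling (0.27, limma adjusted p = 0.1195) and with a replicate block (limma adjusted p = 0.06897). Apom was at 166, 199.8, 177 and 206 RPKM in controls and 213, 215, 248 and 206 RPKM in L-IRSdKO livers (0.24 ± 0.09, limma adjusted p = 0.09594). Apoc3 was at 462, 434, 450.3 and 422 RPKM and then 449, 348, 384 and 326 RPKM (−0.24 ± 0.09, limma adjusted p = 0.1094), and without L-IRSdKO replicate 1 its limma adjusted p was 0.00742. Apob was at 217, 223, 244 and 215 RPKM and then 208, 205, 201 and 201 RPKM (−0.14 ± 0.06, limma adjusted p = 0.1201).

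Apoa5 and Apob were the 2 members free of overlap in this comparison, against 21.7% of genes. Apoe (741, 713, 743 and 672 RPKM, then 726, 696, 764 and 674 RPKM) and Apoa1 (0.03 ± 0.06) were close to level on the flattened scale of these libraries. The members' median was 0.03, as was that of all genes. Of the 5 endothelial markers 3 were higher in L-IRSdKO livers, and the Kupffer cell markers summed to 280 to 351 RPKM there and to 163 to 299 RPKM in controls. Summed stellate cell markers were at 37.2 to 44.96 RPKM against 28.7 to 34.9 RPKM, with 1 of 4 tested (Rgs5) higher, and 2 of the 8 hepatocyte markers were lower, at a summed level of 2427 to 2888 against 2838 to 3157 RPKM. Erythroid (58.7 to 85.8 against 85.9 to 148 RPKM) and cholangiocyte markers (1.65 to 2.91 against 3.44 to 5.43 RPKM) summed lower, with no test of the part of any of these in the members' differences.

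Lean and obese mice were compared before and after the meal. In lean mice the meal changed 23.4% of genes, the largest share of any comparison, while none of the members passed limma's test and 0 were under 0.05 before adjustment. Of the members 1, Apom, was free of overlap (225, 242 and 234 RPKM unfed, 198, 218 and 218 RPKM fed), against 43.3% of genes. Apoa5 was at 711, 686 and 578 RPKM unfed and 607, 695 and 464 RPKM fed (−0.17 ± 0.15, 95% interval from −0.51 to 0.16, limma adjusted p = 0.4508). In the uninjected wild-type mice the fall of 0.71 had a 95% interval from −0.97 to −0.46. The 2 intervals overlapped only from −0.51 to −0.46, which does not show the differences to be alike. The 2 experiments were fitted apart, from rRNA-depleted RNA in the uninjected and poly(A) RNA in the lean mice. The difference between them was not tested. The members' median was 0.06 and that of all genes 0.08. Of the 5 endothelial markers 4 were lower after the meal, as was the stellate cell marker Reln (−0.54), with no test of their part.

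In obese mice none of the members passed limma's test after the meal, where 7.65% of genes did, and 1 was under 0.05 before adjustment. That was Apoa1, at 4416, 4656 and 5394 RPKM unfed and 6038, 6621 and 5872 RPKM fed (0.36 ± 0.16, limma adjusted p = 0.1983), also the 1 member free of overlap against 27.8% of genes. Apoa5 was at 484, 620.3 and 629 RPKM unfed and 600.2, 584 and 564 RPKM fed (0.02 ± 0.15). The members' median was 0.07 and that of all genes 0.02. The diet by meal interaction was called by limma for 0.743% of genes and for no member, with 0 members under 0.05 before adjustment, and Apob, at 0.29 ± 0.18, had the largest member value.

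Obese livers were also set against lean ones at the same time. Unfed, none of the members passed limma's test or was free of overlap, where 5.22% and 22.9% of genes were, and 1 was under 0.05 before adjustment. Apom was at 225, 242 and 234 RPKM in lean and 230.3, 114 and 187 RPKM in obese livers (−0.46 ± 0.21, limma adjusted p = 0.2146), and without obese replicate 1 the difference was −0.68 (limma adjusted p = 0.03979). Apoa4 spread too widely for a comparison, at 318, 96.8 and 92.2 RPKM in lean and 60.3, 326 and 135 RPKM in obese unfed livers. Of the 5 endothelial markers 4 and of the 8 hepatocyte markers 1 were lower in the obese livers, and their part in Apom was not tested.

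Fed, none of the members passed limma's test, where 0.499% of genes did, and 1 was under 0.05 before adjustment. Apob was at 418, 448 and 489.6 RPKM in lean and 641, 582 and 563 RPKM in obese livers (0.40 ± 0.13, 1.32-fold, limma adjusted p = 0.1406, and 0.04027 when the 2 groups alone were fitted). Apom was at 198, 218 and 218 RPKM and then 198, 176 and 145 RPKM (−0.30 ± 0.21, limma adjusted p = 0.4489). In all, 3 members were free of overlap (Apob higher, Apoc3 and Apom lower), against 32.6% of genes, 17.8% higher and 14.9% lower. For Apom the highest obese and the lowest lean liver agreed to within 1 RPKM. The summed hepatocyte markers ran from 45594 to 48191 RPKM in obese and 54743 to 57481 in lean fed livers, the stellate cell markers from 17.1 to 19.1 and 10.3 to 15.5, and the small intestine markers, nearly all Fabp2, from 76.8 to 114 and 27.3 to 49.6. None of these markers passed limma's test (6 under 0.05 before adjustment), and their part was not tested.

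**Figure D4:**
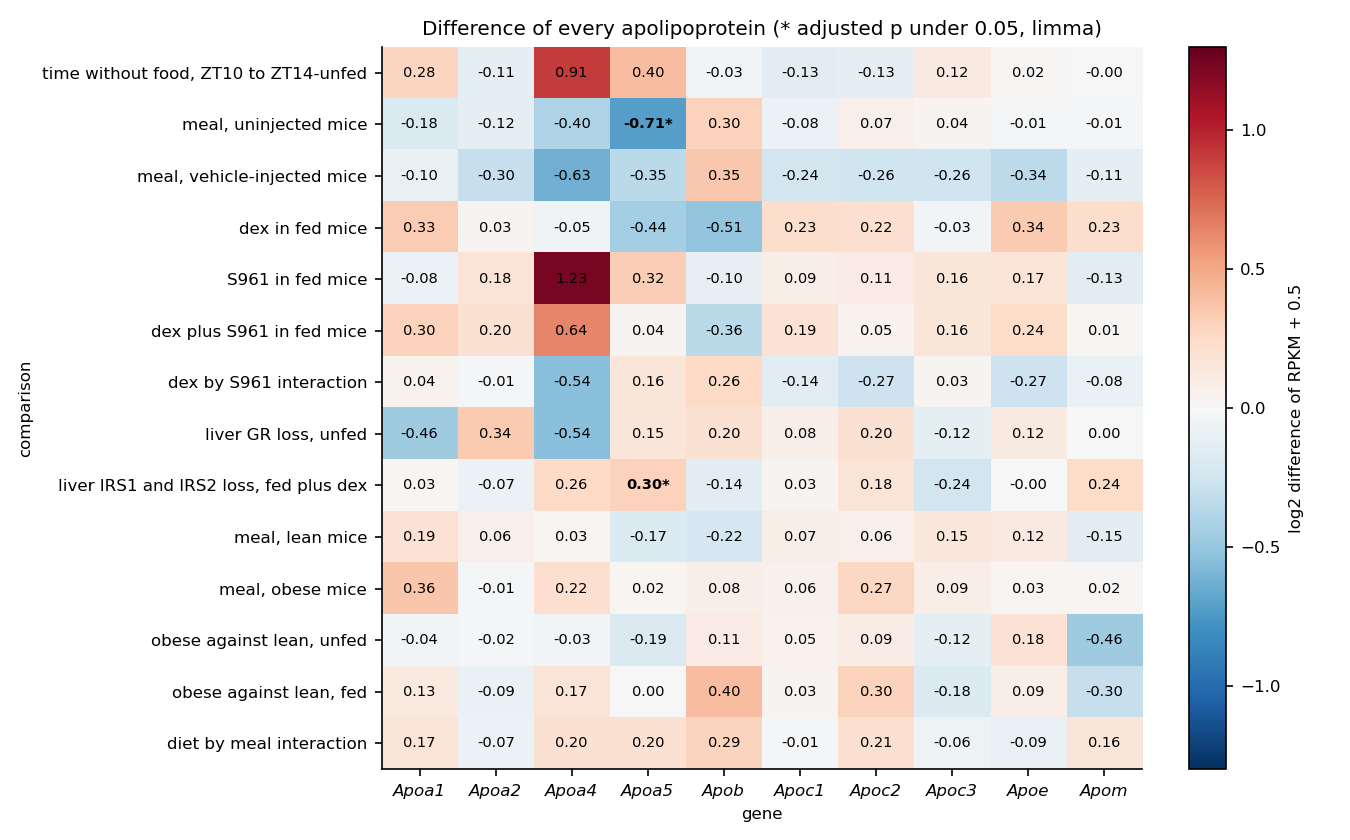
Log2 difference of RPKM + 0.5 for the 10 members (columns) in the 14 comparisons (rows), with red for higher and blue for lower and an asterisk at a limma adjusted p under 0.05. The asterisks stand at Apoa5 with the meal in uninjected mice (−0.71) and with liver IRS1 and IRS2 loss (0.30).

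Over the 140 pairs of a member and a comparison 2 passed the test. Of the 120 pairs outside the interactions 113 were under 0.5 in size on the log2 scale. Apoa4 had the widest span, from −0.63 to 1.23, and Apoc3 the narrowest, from −0.26 to 0.16. Apoa5 was the member with the lowest adjusted p, and its mean was lower in fed than in unfed livers in the uninjected, vehicle-injected and lean mice and not in the obese mice, of which only the first passed the test.

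Other genes of the pathway were counted over lists chosen with earlier results of these data known. The shares of all genes called, given above, are the background of these counts, at 6.77% with the meal in uninjected, 3.13% in vehicle-injected, 23.4% in lean and 7.65% in obese mice, 3.19% with dex, 1.9% with S961, 6.68% with GR loss and 17.4% with IRS loss. Among 11 plasma lipases and their regulators, Angptl8, a meal-induced inhibitor of lipoprotein lipase, rose with the meal in uninjected mice by 3.36 on the log2 scale. Angptl4, a fasting-induced inhibitor, fell by 2.70, and the other 9 did not pass. The same 2 genes passed in the vehicle-injected mice (2.52 and −1.52). In lean mice 1 was higher (Angptl8, 4.65) and 2 were lower (Angptl4, −2.63, and endothelial lipase Lipg, −1.51). In obese mice Angptl8 alone passed, by 2.61. The diet by meal interaction was called for Angptl4 (2.49), Lipg (2.01) and Angptl8 (−2.04). With S961, Angptl4 rose by 1.64 while 1 other gene of the list was lower, and with dex alone 0 of 11 passed by limma (2 under 0.05 before adjustment).

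Of the receptors and HDL exporters 9 of 10 were tested. Abca1, which loads lipid onto Apoa1, rose with the meal by 0.70 in uninjected and 0.70 in lean mice, where 5 of the 9 rose and 0 fell, against 23.4% of all genes called. Abcg1 was lower with dex (−0.74), the 1 gene of the list that passed there.

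Of the genes for assembly and secretion 16 of 17 were tested. Pdia4, a chaperone of the endoplasmic reticulum, rose with the meal in vehicle-injected (1.08), lean (1.27) and obese mice (1.47) and was lower with dex plus S961 (−1.27) and with IRS loss (−1.07). P4hb, the small subunit of the transfer protein that lipidates Apob, was lower with dex (−0.38), dex plus S961 (−0.40) and IRS loss (−0.28). Apobec1, which edits Apob mRNA, was lower with the meal in uninjected mice (−0.83) while Sort1 was higher (0.75). With IRS loss 1 of the 16 was higher (Tm6sf2, 0.99) and 5 were lower, against 17.4% of all genes called, among them Ces3b (−1.17) and Ces3a (−0.82). With GR loss A1cf, the cofactor of Apobec1, and Ces1d were higher (0.83 and 1.13).

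All 22 genes on the list of known regulators were tested. Srebf1, the lipogenic factor induced by insulin, rose with the meal by 2.65 in uninjected, 1.27 in vehicle-injected and 2.60 in lean mice, was lower with S961 (−1.84) and with IRS loss (−1.82), and had a diet by meal interaction of −2.33. Klf15 and Irs2 were lower with the meal in the same 3 settings, Klf15 at −0.80, −0.67 and −0.89. In lean mice 7 of the 22 were higher and 7 lower, against 23.4% of all genes called, the latter with Foxo1 (−1.23), Ppara (−0.81) and Rora (−0.87), and the former with Foxa2 (1.32), Foxa3 (0.76) and Nr1h4 (0.50).

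Of 17 further apolipoprotein genes 14 were tested, or 15 in L-IRSdKO. With IRS loss 0 were higher and 5 lower, against 17.4% of all genes called, led by Apol9a (−2.14) and Apol7a (−1.42), and the list's median was −1.19 against 0.03 for the 10 members and all genes alike. With GR loss Saa4 was lower (−1.26) and Apol7a higher (1.04). With time without food Apol7a, Apol9a and Apol9b were lower and Saa4 higher, and with the meal in uninjected mice Apol7a was higher (0.97).

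The genes most alike in pattern were taken as the 3 with the highest Pearson's r over the 54 libraries, after centring each experiment on its mean, among 10521 genes. Values are given as a description, since the libraries of an experiment share groups and, in the injected mice, replicate 4. Apoa5 was most like G6pc, the last enzyme of glucose output (r = 0.70), Hacl1 and Slc25a47, and Apoa4 was most like Insig2, an anchor of SREBP processing (r = 0.64). Apoe was most like Ddrgk1 (0.95), Aldh2 and Cox5b, and Apob most like Usp9x (0.84) and Birc6. Both members differed between replicate 4 and the other injected livers, and the genes most alike were not sought again without replicate 4. Apoc2 was most like Gm44805 (0.87), the readthrough transcript that shares its exons, so reads shared between the models may enter this value. Apom was most like Igfbp2 (0.79), Apoa2 most like Gstt1 (0.74), Apoa1 most like B4galnt1 (0.69) and Apoc3 most like Adk (0.66). Between members the highest values were 0.77 for Apoc2 with Apoe, 0.64 for Apoc1 with Apoc2 and 0.53 for Apoa4 with Apoc3. Without the 5 replicate 4 libraries (n = 49) these were 0.65, 0.73 and 0.56, and Apoc1 with Apoe went from 0.44 to 0.78, the highest pair there.

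The lists of GR peaks, FOXO1 peaks and DNase-hypersensitive sites (DHSs) were placed around the start sites. They give positions only and carry no replicate values. By the study, the GR and FOXO1 peaks came from unfed livers at ZT14, and the DHSs from fed and unfed livers at ZT14 combined. A GR peak lay within 50 kb of 9 of the 10 members, as for 33.8% of 19618 placed genes, and a FOXO1 peak near all 10, as for 35.4%. A DHS lay near all 10, as for 88.4%. Apom was the member with no GR peak, its nearest being at −103863 bases from the start (negative, upstream). The members are not independent in this count, because those of a cluster share peaks.

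**Figure D5:**
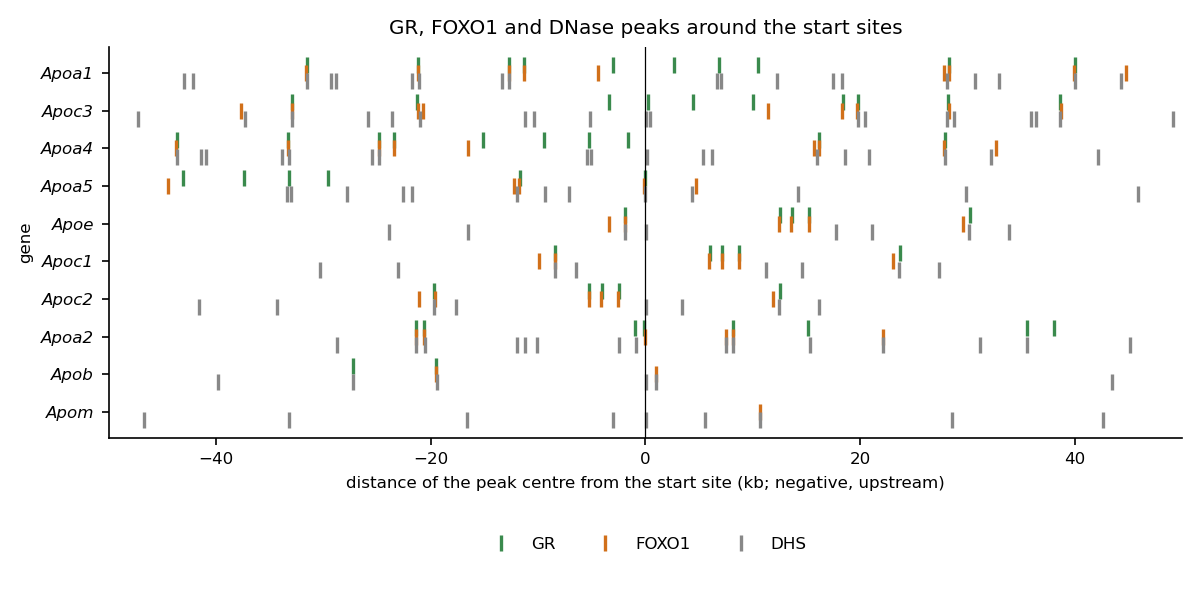
GR peaks, FOXO1 peaks and DHSs within 50 kb of the 10 start sites (x axis, distance of the peak centre in kb, negative upstream, rows, genes with the chromosome 9 cluster on top). At Apoa5 and Apoa2 a GR and a FOXO1 peak stand at the start, and Apom has 0 GR peaks in the window.

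The chromosome 9 cluster held 10 distinct GR peaks, 9 FOXO1 peaks and 22 DHSs within 50 kb of its starts, and the chromosome 7 cluster 5, 6 and 8. Apoa2 had 8 GR and 6 FOXO1 peaks, Apob 2 of each, and Apom 1 FOXO1 peak, 10709 bases downstream of its start. At Apoa5 the FOXO1 peak printed above was centred at −92 and the GR peak at −41 bases from the start, with a DHS between them at −63. At Apoa2 the centres were at −73 (FOXO1) and −139 (GR), and neither overlapped a DHS. At Apoe a GR and a FOXO1 peak stood at −1921 and −1907. Fewer of the members' peaks than of all peaks overlapped a DHS by at least 1 base, with 14 of 25 GR peaks (56.0%, against 81.6% of 10446) and 13 of 24 FOXO1 peaks (54.2%, against 84.9% of 8546), given as a description. In the chromosome 9 cluster it was 4 of 10 and 4 of 9.

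The letters GTAAACA, searched on both strands, stood in 18.8% of all FOXO1 peaks, 7.29% of GR peaks and 4.36% of DHSs, which are 168 to 180 bases wide. Among the members they stood in the peaks at the Apoa2 start, in the capitals above, in the pair upstream of Apoe, and in a further FOXO1 peak at −3396 bases from the Apoe start. A match describes letters and not binding, and the lists do not say how occupancy at these peaks changed with the meal.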

How the data were processed

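Liver RNA was measured in 54 libraries of single mice. Per the submitters' processing notes and the study's methods, the authors aligned reads to mm9 with STAR and deposited RPKM values per RefSeq transcript made with HOMER, from rRNA-depleted RNA in the NRF experiment and poly(A) RNA in the others, and ran DESeq2 on counts not used here. Such values are scaled for depth and length only, so a few abundant genes can shift all others. The deposited peak lists hold positions only, called by the authors with HOMER. Those for GR and FOXO1 were concordant between replicates of unfed livers, and DHSs were called on pooled replicates of fed and unfed livers. The S961 dose reads differently in the labels and the methods and is not given.

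Of 35707 RefSeq IDs 35407 had a symbol in the RefSeq gene table of GRCm38.p6, used for names only, and gave 24312 symbols. The ID with the highest mean RPKM represented a symbol, and 0 value columns were unused. Genes averaging 0.5 RPKM or more entered a limma fit (limma 3.58.1, R 4.3.3) of log2(RPKM + 0.5), made for each of the 5 experiments separately, with a variance trend, no replicate block and Benjamini-Hochberg adjustment over all genes. Fold changes are on that scale. The steps were tested on simulated data. Python 3.11.15, numpy 2.4.6, pandas 2.3.3, scipy 1.17.1 and matplotlib 3.10.9 were used for peaks and figures. Counting errors are estimated from RPKM steps and cover counting only.

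The members, the gene lists and the tests were chosen with earlier results of these data known. Named genes were the 10 members, list genes that passed a test, and the 3 most alike genes, and 1 list gene is not reported here. The fits were repeated with a replicate block, with the pseudocount at 0.1 or 1, with the filter dropped or raised to 2 RPKM, with median-ratio scaling, with quantile normalization, after summing the IDs of a symbol, without the variance trend, at an adjusted p of 0.01, on the compared groups alone, with a term for the library number series and with each library left out in turn. Peaks were also counted within 20 and 100 kb and only where they lay in a DHS. Fits on replicates 1 to 3 of the injected groups were added after seeing the data. In no experiment did every same-numbered pair of libraries deviate together (r from −0.12 to 0.61 in the injected mice), and the numbers were not used as pairs in the reported fits. Same-numbered pairs of the injected mice had a median r of 0.14, and other pairs one of −0.05. The reported fits of that experiment therefore hold the replicate 4 difference in their error. Members that passed only with a term for it are named beside them.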

Additional observations from a re-analysis of the deposited data

Results flagged for a closer look

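In groups of 4, a library was singled out where its gap to the nearest other library, divided by the range of the group, passed Dixon's critical value of 0.829. Of 90 member and group combinations 5 did so, where chance gives about 1 in 20. Apoe was at 12450.7 RPKM in unfed vehicle replicate 4, against 5436 to 5952 RPKM in the others, and at 12570.4 RPKM in fed dex replicate 4, against 5142 to 6241 RPKM. In the same unfed vehicle replicate 4, Apob was at 484 RPKM (599 to 619.7 RPKM in the others) and Apoc3 at 1534 RPKM (1881 to 1952 RPKM). All 4 of these belong to the separate library number series. Apoa5 was at 534 RPKM in fed vehicle replicate 3, against 349.6 to 375 RPKM in the other fed vehicle livers, and that library is not of that series. None of the 20 tests of a member's interaction (dex by S961, diet by meal) was called by limma, with 0 under 0.05 before adjustment.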

How the results depend on the processing

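The number of members called changed with the processing in most experiments, each time by 1 or 2 genes, and no called difference turned its sign. With time without food the count was 1 in place of 0 with the 2 RPKM filter, median-ratio scaling or quantile normalization (Apoa5 each time). With the meal in uninjected mice it was 0 in place of 1 without a filter or at an adjusted p of 0.01. In the vehicle-injected mice it was 1 (Apoa2) with median-ratio scaling or the series term. With dex it was 1 (Apob) under the replicate block, 2 (Apoa5, Apob) with the series term and 1 (Apoa1) on replicates 1 to 3. With S961 it was 1 (Apoa4) under the replicate block, at a limma adjusted p of 0.03526. With dex plus S961 it was 1 with median-ratio scaling (Apoa2) or the series term (Apob). With GR loss it was 1 (Apoa4) with median-ratio scaling or quantile normalization. With IRS loss it was 0 without a filter, with median-ratio scaling, with summed IDs, without a variance trend, under the replicate block and at an adjusted p of 0.01, and 3 with quantile normalization (Apoa5, Apoa2, Apom). In fed obese against lean livers it was 1 (Apob) when the compared groups alone were fitted. The cause of these changes was not tested. Leaving out a library in turn gave counts from 0 to 1 for time without food, 0 to 2 for the meal in uninjected mice, 0 to 1 for S961, 0 to 1 for GR loss, 0 to 2 for IRS loss, 0 to 1 for unfed obese against lean livers and 0 in all other comparisons.

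The Apoa5 difference with the meal in uninjected mice kept its call in 10 of 15 alternatives, from −0.86 to −0.61 (limma adjusted p from 0.007233 to 0.08435), and that with IRS loss in 6 of 18, from 0.24 to 0.39 (0.01827 to 0.1229). The counts of members near a peak were the same at 20 kb, at 100 kb and, for GR and FOXO1, with only peaks in a DHS. The replicate block changed no other member call than those named here. Over all genes, the block moved the calls from 359 to 968 with dex, from 352 to 928 with the meal in vehicle-injected mice, from 214 to 432 with S961, from 1193 to 2041 with dex plus S961, from 976 to 591 with time, from 738 to 464 with the meal in uninjected mice, from 2253 to 1444 with IRS loss, from 57 to 11 in fed obese against lean livers and from 85 to 46 for the diet by meal interaction. The series term gave 1096, 1036, 478 and 2204 calls in the first 4 of these. Without a filter the calls were 222 for time, 116 for the meal in uninjected mice, 466 (778 in the reported fit) for GR loss, 541 (875) for the meal in obese mice, 355 (597) and 8 for obese against lean livers unfed and fed, and 28 for the interaction. Fitting the compared groups alone gave 399 for time, 87 with dex, 24 with S961, 63 for the meal in obese mice, and 35 and 720 for obese against lean livers unfed and fed (34 fed without a variance trend). On replicates 1 to 3 the calls were 716 with the meal, 818 with dex and 4 in place of 0 for dex by S961. Median-ratio scaling and quantile normalization gave 216 and 215 with the meal in vehicle-injected mice and 774 and 710 with dex plus S961. At an adjusted p of 0.01 between 0 and 1169 genes were called per comparison, against 0 to 2673. Leaving out a library reached as few as 39 calls for the meal in uninjected mice and 0 to 8 for fed obese against lean livers. Scaling moved the split of calls, with 531 of 738 genes higher after the meal in uninjected mice and 278 of 607 with median-ratio scaling. Another scaling turned the sign of 38 of 280 member values, all at most 0.13 in size and none called. The L-IRSdKO libraries were the shallowest by the depth implied from RPKM steps, and 2 mice per group limit the NRF experiment.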
